A study of Mus musculus with 15 samples.

Results

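Interferon-stimulated genes are the genes that a cell switches on after an interferon binds its surface receptors. The 35 genes described here were chosen by gene name, and all 35 were found among the 28269 genes listed in any table of the study. The study measured RNA by sequencing in mouse uterine epithelium on day 4, in 5 groups of 3 libraries. The lining of the cavity is luminal epithelium (LE), and the glands under it consist of glandular epithelium (GE). WT LE and WT GE are the wild-type control luminal and glandular epithelium, E-OEX LE and E-OEX GE are the same epithelia labelled as overexpressing Notch1, and U-OEx LE is luminal epithelium with the same Notch1 label. The labels name no treatment, and the strain and age of the mice, the driver of the overexpression, and the wording behind E-OEX and U-OEx are not given in the sources used here. No glandular U-OEx group was analysed here. Nothing in the labels ties a library to a separate animal, so every p-value measures only the spread between these libraries, which may be technical.

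Interferons of type I and type III act through the kinases JAK1 and TYK2 and lead to the formation of ISGF3, a complex with STAT2 and IRF9 among its subunits that binds a DNA element called the interferon-stimulated response element (ISRE). Type II interferon acts through a shorter palindrome called the gamma-activated site (GAS). Most of the induced proteins block steps of viral replication, sense foreign nucleic acids, feed back on the pathway, or prepare peptides for antigen presentation. In the uterus, interferon epsilon is made by the epithelium itself and follows the ovarian hormones, and in ruminants the implanting embryo signals to the uterus with an interferon.

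Each library was deposited as its counts over 1 scaling factor, here called deposited values. Libraries of different genotypes were compared on rescaled reads, which are the same counts put on 1 scale by the trimmed mean of M values (TMM) over the genes listed in both tables. Differences are log2 fold changes of the value plus 1, with a standard error (SE) and a p-value from limma adjusted over all genes tested by the Benjamini-Hochberg method. A gene was said to have changed where the adjusted p was under 0.05. The U-OEx tables list 27946 genes, while 6414 are listed for WT and 4903 for E-OEX, and reads in listed genes ran from 13541644 to 14981505 in U-OEx LE, 4573726 to 4797424 in WT LE, 3818041 to 4420167 in WT GE, 1980800 to 2527819 in E-OEX LE and 2995435 to 3494859 in E-OEX GE. In WT 97% of the listed genes differed between GE and LE, and in E-OEX 91.6% did, so both lists are selected on that difference and their sums are not library depths. Notch1 was listed in the U-OEx tables alone, at deposited values of 2913, 3524 and 2789, so the overexpression label could not be checked against WT. Summed luminal markers ran from 32374 to 58297 in WT LE and from 409 to 859 in WT GE, and summed glandular markers from 45.6 to 104 and 30953 to 54467, in the direction of the labels. The same luminal markers summed to 15307 to 18770.3 in E-OEX LE and 7489.5 to 10979 in U-OEx LE, below every WT LE library. Of the 5 luminal markers 3 fell and 1 rose in U-OEx LE, and 2 fell in E-OEX LE. The 6 glandular markers tested summed to 49.9 to 96.2 rescaled reads in WT LE and 981 to 1383 in U-OEx LE (3 higher, 1 lower). In the fit of E-OEX LE they summed to 48.9 to 85.4 in WT LE and 99.9 to 815 in E-OEX LE (0 passed). Of 3 epithelial markers 2 fell in U-OEx LE. The part of other cells in the results was not tested.

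All 35 genes were listed in U-OEx LE, 26 in the WT tables (74.3%) and 24 in the E-OEX tables (68.6%). Of the 9983 genes that were at least as high as the lowest of the 35 in U-OEx LE, 23.1% were in the WT tables and 13.1% in the E-OEX tables. Among the 35 genes, 23 were in every table, 3 (Mx2, Irf9 and Gbp3) were in the WT and U-OEx tables, and 1 (Parp14, an ADP-ribosyltransferase) was in the E-OEX and U-OEx tables. The other 8 were listed in U-OEx LE alone, so no comparison was possible for them. They are Ifit2, Ifi27, Ifi35, Ifih1, Irf1, Rsad2, Herc6 and Parp9. In the tables that held a gene of the list its reads per library ran from 118 in U-OEx LE, 198 in E-OEX LE, 49 in WT LE, 25 in E-OEX GE and 3 in WT GE upward.

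Per kilobase of exon, the order of the 35 genes in U-OEx LE was led by Bst2, which encodes tetherin, a membrane protein that holds budding virus particles on the cell. Its deposited value per kilobase was 2929.8 ± 272 (SD, n = 3). Oas2, a synthetase of the short oligoadenylates that switch on the RNA-cutting enzyme RNase L, followed at 2258 ± 149.9. Isg15, a ubiquitin-like protein joined to many targets, stood at 1769 ± 124 and Ifi27, a small mitochondrial and nuclear-envelope protein, at 1645 ± 84.9. The ranges of Bst2 and Oas2 did not overlap and neither did those of Oas2 and Isg15, while the libraries of Isg15 and Ifi27 overlapped. A step separated these 4 genes from the fifth, Irf7, the factor that amplifies type I interferon production, at 859 ± 109. From Irf7 down, 26 of the 30 pairs of neighbours in the order had overlapping libraries and so did not differ beyond their spread, among them Oasl2 at 773 ± 149 and Oas1a at 759 ± 34.7. The lowest levels per kilobase were those of Ifih1, the RNA sensor MDA5, at 91.2 ± 17.7, of Cmpk2, a mitochondrial nucleotide kinase, at 86.7 ± 6.92, of Herc6, the ligase that attaches ISG15 in mice, at 67.3 ± 2.07, and of Ifit2, which binds RNA and slows translation, at 39.6 ± 13.6. All 35 lay above the median of 25923 genes with reads, 20 per kilobase, and 20 lay in the top 10%.

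**Figure D1:**
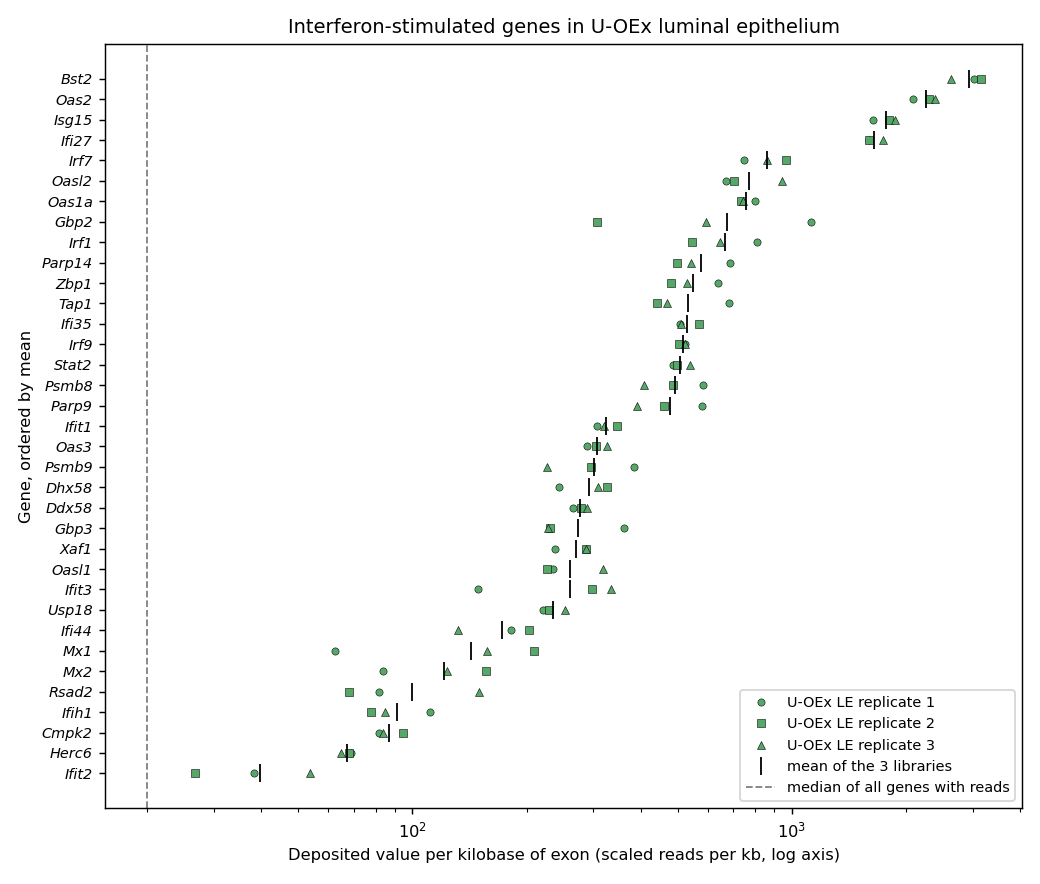
Level per kilobase of exon (log axis) of the 35 genes in the 3 U-OEx LE libraries, ordered by mean; points are libraries. Bst2 leads at 2930 and Ifit2 is last at 39.6, and the points of Gbp2 and Mx1 spread most.

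The 8 genes listed in U-OEx LE alone covered a wide range of deposited values. Irf1, the interferon gamma-responsive transcription factor, had 3224, 2165 and 2567 in replicates 1 to 3. Ifi27 had 2344, 2339.8 and 2558, and Parp9, a partner of the ubiquitin ligase Dtx3l, had 2832, 2245 and 1901. In these 3 genes the libraries were within 1.5 times of each other. Rsad2, which encodes viperin, an enzyme that makes a chain-terminating nucleotide, had 354, 294 and 651, highest in replicate 3. Ifit2 had 149.8, 105 and 211 and was also highest in replicate 3. Ifi35 had a mean of 913 ± 61.3, Ifih1 of 744 ± 145 and Herc6 of 625 ± 19.2 (SD, n = 3). Parp14 had 5351, 2123 and 2226 in E-OEX LE, 1540.3, 1289 and 1505 in E-OEX GE and 6392, 4644 and 5059 in U-OEx LE.

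Several of the genes are neighbours in the genome (GRCm38 coordinates, GENCODE M21). Oas2 (chr5:120730333-120749853), Oas3 (chr5:120753098-120777661) and Oas1a (chr5:120896256-120907521) lie on the same strand of chromosome 5, with the OAS-like genes Oasl2 (chr5:114896936-114912234) and Oasl1 (chr5:114923240-114937915) elsewhere on it. Ifit2, Ifit3 and Ifit1 lie between 34550694 and 34650009 on chromosome 19. Psmb9, Tap1 and Psmb8 adjoin each other between 34181987 and 34201454 on chromosome 17, and Psmb9 and Tap1 overlap at their starts. Gbp3 and Gbp2 lie on chromosome 3, Mx1 and Mx2 on chromosome 16, Parp14 and Parp9 also on chromosome 16, and Rsad2 and Cmpk2 on chromosome 12. For 31 of the 35 genes under 5% of 50-base stretches of the transcripts occur in another gene. The exceptions are Oas1a (57.6%, mostly Oas1g), Ifit3 (51.2%, Ifit3b), Herc6 (12.5%) and Ifit1 (7.13%), whose reads the authors' counting could have split or shared. The preparation kit is named but its strand is not, so reads of Psmb9 and Tap1 cannot be told apart where they overlap. The same holds where genes of the other strand overlap Ifi35 (16.8% of the exonic bases), Psmb8 (14.7%) and Parp9 (9.4%), the largest such overlaps.

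In U-OEx LE most of the interferon-stimulated genes were higher than in WT LE, with log2 fold changes of 0.79 to 2.82 for the antiviral effectors that passed the test, while the RNA sensor Ddx58 and the apoptosis regulator Xaf1 were lower. Of 26 genes tested, 17 rose and 2 fell at an adjusted p under 0.05, where 29.1% of all 5950 genes tested rose and 27.8% fell. The median log2 fold change of the 26 was 1.21, beside 0.09 over all genes, and 24 of 26 were positive. In 21 genes every U-OEx LE library lay above every WT LE library (32.7% of all genes did), in 2 every one lay below (31.2%), and 3 overlapped. Leaving out each library in turn gave 18 to 19 changed genes of the list. Mx2 and Psmb8 were the least stable of the 19: Mx2 passed in 2 of the 6 such fits and Psmb8 in 4.

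**Figure D2:**
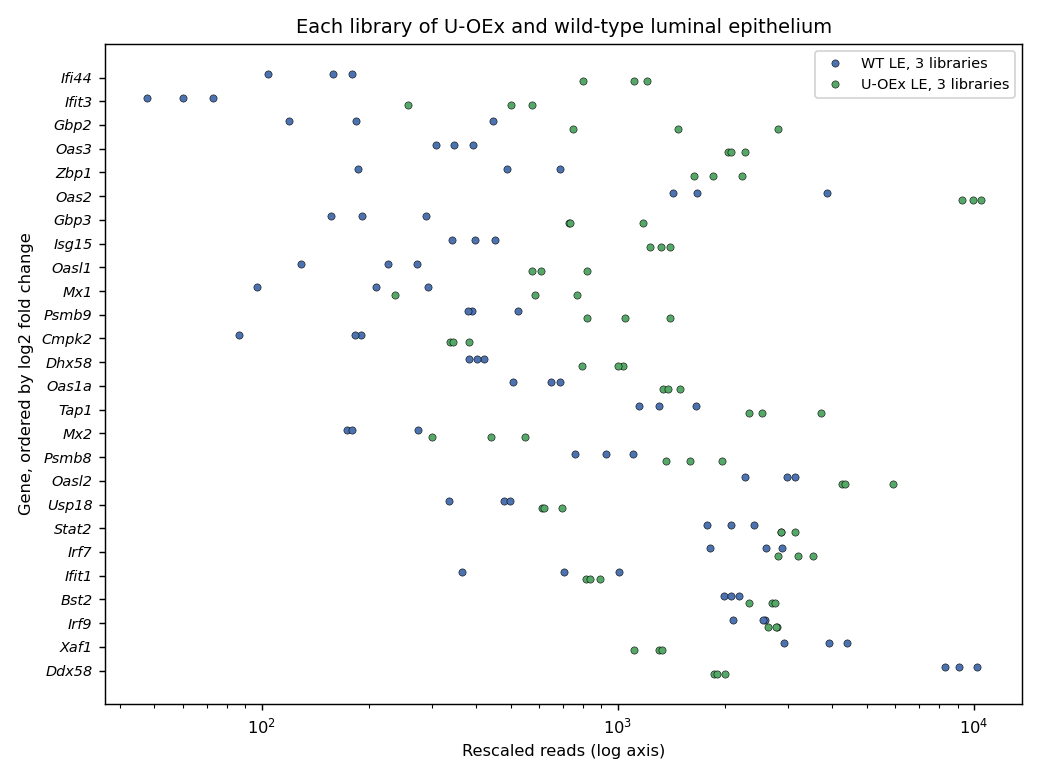
Rescaled reads (log axis) of the 26 genes in each of 3 WT LE and 3 U-OEx LE libraries, ordered by log2 fold change. U-OEx LE lies above WT LE without overlap for 21 genes, and below it for Xaf1 and Ddx58 at the bottom.

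The largest differences were in effectors. Ifi44, a cytoplasmic protein named for its induction by interferon, had 159, 104 and 179.6 rescaled reads in WT LE replicates 1 to 3 and 1109, 1206 and 797 in U-OEx LE. Every U-OEx library was more than 4 times the highest WT library, and the log2 fold change was 2.82 (SE 0.31, adjusted p = 0.000143). Ifit3, an antiviral protein of the tetratricopeptide repeat family, had 60.1, 47.6 and 73.1 in WT LE and 258, 503 and 576 in U-OEx LE. U-OEx LE replicate 1 was the lowest of its group but still above all of WT, with a log2 fold change of 2.81 (SE 0.38, adjusted p = 0.00047). Isg15 had 396, 342 and 452 rescaled reads in WT LE against 1229, 1320.5 and 1401 in U-OEx LE. Both groups were tight and apart, with a log2 fold change of 1.74 (SE 0.22, adjusted p = 0.00035). Cmpk2, the neighbour of Rsad2, had 189.5, 86.5 and 183 in WT LE and 339, 382 and 344 in U-OEx LE. It rose by a log2 fold change of 1.29 (adjusted p = 0.0149), and WT LE replicate 2 lay below the other two.

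All 5 genes of the oligoadenylate synthetase family on the list that were tested rose. Oas3, the longest member, had 391, 347 and 309 rescaled reads in WT LE and 2038, 2083 and 2276 in U-OEx LE. The groups were far apart against a narrow spread, at a log2 fold change of 2.61 (SE 0.21, adjusted p = 4.06e-05). Oas2 had 1429.8, 3857 and 1674 in WT LE and 9265, 9956 and 10456 in U-OEx LE, so that WT LE replicate 2 alone came within 3 times of the U-OEx libraries. The log2 fold change of Oas2 was 2.24 (SE 0.36, adjusted p = 0.00112). Oas1a had 688, 508 and 649.7 against 1499, 1342 and 1386 (log2 fold change 1.20, adjusted p = 0.00222), with the caution that it shares much sequence with Oas1g. Of the OAS-like genes, Oasl1 lacks the synthetase activity of the family and Oasl2 retains it. Oasl1 had 272, 129 and 227 in WT LE and 609, 574 and 821 in U-OEx LE, a log2 fold change of 1.72 (adjusted p = 0.0031). Oasl2 had 2979, 2282 and 3142 and 4251, 4359.7 and 5941, a smaller difference of 0.79 (adjusted p = 0.0199). In each of the 5 genes the 3 U-OEx LE libraries exceeded the 3 WT LE libraries.

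Gbp2 and Gbp3, guanylate-binding GTPases that coat intracellular pathogens, rose as well. Gbp2 had 119, 445 and 184 rescaled reads in WT LE and 2819.5, 746 and 1479 in U-OEx LE, with a log2 fold change of 2.77 (SE 0.59, adjusted p = 0.00461). Replicate 2 was the highest of WT LE and the lowest of U-OEx LE, and the 2 groups did not overlap. Gbp3 had 157, 289 and 191 in WT LE and 1174, 730.1 and 735 in U-OEx LE (log2 fold change 2.06, adjusted p = 0.00101). Of the Mx GTPases, which trap viral nucleocapsids, Mx2 had 174, 179.7 and 275 and 301, 548 and 439, a log2 fold change of 1.02 (adjusted p = 0.028) in which the highest WT library came close to the lowest U-OEx library. Mx1 had 209, 97.1 and 293 in WT LE and 236, 769.7 and 587 in U-OEx LE. Its U-OEx replicate 1 fell within the WT range, and the log2 fold change of 1.38 did not pass (adjusted p = 0.0574). Among the other effectors, neither Ifit1, which binds viral RNA lacking cap methylation, nor Bst2 passed. Ifit1 had 0.41 (95% interval -0.43 to 1.24) and Bst2 had 0.32 (95% interval -0.13 to 0.76).

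The sensors of foreign nucleic acids went in both directions. Zbp1, which detects Z-form nucleic acids and can trigger necroptosis, had 186, 689 and 488 rescaled reads in WT LE and 2240.0, 1640.3 and 1849 in U-OEx LE. It rose by a log2 fold change of 2.25 (SE 0.45, adjusted p = 0.00349) with no overlap. Dhx58, which encodes LGP2, a helicase that tunes the other RNA sensors, had 422, 402 and 382 and 793, 1037 and 998, a log2 fold change of 1.22 (adjusted p = 0.00232). Ddx58, which encodes RIG-I, the sensor of RNA with a bare triphosphate end, had 8282, 9085 and 10218 in WT LE and 1857, 1901 and 2005 in U-OEx LE. Each U-OEx library was more than 4 times below each WT library, and the log2 fold change was -2.25 (SE 0.19, adjusted p = 4.73e-05). Xaf1, an effector that counters the caspase inhibitor XIAP, had 3921, 2933 and 4392 in WT LE and 1109, 1302 and 1329.5 in U-OEx LE. It fell by 1.57 on the log2 scale (SE 0.23, adjusted p = 0.000672), again with no overlap.

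No gene of the transcription factor and feedback group passed the test, 0 of 4 by limma. Stat2 and Irf9, the ISGF3 subunits on the list, had log2 fold changes of 0.51 (adjusted p = 0.0638) and 0.18 (95% interval -0.27 to 0.64). Irf7 had 0.41 (95% interval -0.15 to 0.97) and Usp18, the protease that removes ISG15 and damps the receptor, 0.57 (adjusted p = 0.0829). At an unadjusted p under 0.05 Stat2 alone of the 4 passed, and edgeR and DESeq2 called 0 and 0 of the 4. All 3 antigen-processing genes rose. Psmb9, an immunoproteasome subunit, had 523, 389.6 and 379.7 and 1399.7, 1049 and 818 (log2 fold change 1.32, adjusted p = 0.00446). Tap1, a chain of the pump that carries peptides into the endoplasmic reticulum, had 1660.2, 1146 and 1308 and 3725, 2343 and 2539 (log2 fold change 1.05, adjusted p = 0.0093). Psmb8, another immunoproteasome subunit, had 927, 1106 and 757 and 1959, 1595 and 1364 (log2 fold change 0.82, adjusted p = 0.0219). In all 3 genes U-OEx replicate 1 was the highest library.

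Leukocytes can express these genes too, and in bulk RNA fewer cells of a type and less RNA per cell cannot be told apart. Of 26 leukocyte markers 5 were listed in both sets of tables, and 3 of those rose in U-OEx LE: Adgre1 (log2 fold change 2.13), Lyz2 (1.60) and Laptm5 (1.22). The 5 summed to 1131 to 2332 rescaled reads in WT LE and 2578 to 4409 in U-OEx LE. All 26 had reads in U-OEx LE, where their deposited sums were 24354, 6663 and 38450.3 in replicates 1 to 3, and Ptprc, the pan-leukocyte gene that was not listed in WT, was 1569.6, 441 and 2705. The part of these cells in the results was not tested. The summed deposited value of the 35 genes was 68767, 64257 and 66898 in replicates 1 to 3. That sum is led by abundant genes such as Oas2, at 9301, 10265 and 10582. Gene by gene, 13, 9 and 13 of the 35 were highest in replicates 1, 2 and 3, and 16, 12 and 7 were lowest there.

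The promoters of the genes that differed most in this comparison are shown so that the response elements named above can be read beside the values. The 4 with the largest rise were taken by rule, and Isg15, Ddx58 and Xaf1 were added after their values were seen, as a strongly expressed member and the 2 that fell. Each line holds the 160 bases before the annotated start in RefSeq (GRCm38.p6), 5′ to 3′ on the gene's own strand, and capitals mark matches to the ISRE core, which is GAAA, any 2 bases and GAAA on one strand and TTTC, any 2 bases and TTTC on the other.
Ifi44: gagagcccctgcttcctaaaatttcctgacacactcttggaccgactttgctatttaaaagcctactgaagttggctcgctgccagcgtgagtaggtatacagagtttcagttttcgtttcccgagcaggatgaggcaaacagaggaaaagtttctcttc
Ifit3: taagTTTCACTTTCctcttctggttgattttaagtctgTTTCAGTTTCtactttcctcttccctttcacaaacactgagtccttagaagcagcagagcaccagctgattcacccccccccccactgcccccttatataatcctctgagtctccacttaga
Gbp2: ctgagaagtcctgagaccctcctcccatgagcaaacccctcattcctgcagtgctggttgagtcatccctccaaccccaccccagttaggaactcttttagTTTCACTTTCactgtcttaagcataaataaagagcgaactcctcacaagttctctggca
Oas3: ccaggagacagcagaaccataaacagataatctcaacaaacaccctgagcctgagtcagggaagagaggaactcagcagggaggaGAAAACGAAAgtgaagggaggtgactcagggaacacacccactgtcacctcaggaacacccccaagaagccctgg
Isg15: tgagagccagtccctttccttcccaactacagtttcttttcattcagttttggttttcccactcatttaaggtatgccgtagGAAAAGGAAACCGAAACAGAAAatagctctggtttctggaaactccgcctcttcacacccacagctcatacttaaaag
Ddx58: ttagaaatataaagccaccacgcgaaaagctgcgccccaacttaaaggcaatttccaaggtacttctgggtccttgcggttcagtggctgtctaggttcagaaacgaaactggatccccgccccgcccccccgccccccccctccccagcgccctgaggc
Xaf1: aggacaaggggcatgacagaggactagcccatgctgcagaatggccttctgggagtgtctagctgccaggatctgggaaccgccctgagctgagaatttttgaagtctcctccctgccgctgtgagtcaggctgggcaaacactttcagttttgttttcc
These stretches lie at chr3:151749911-151750070 (minus strand) for Ifi44, chr19:34583369-34583528 (plus) for Ifit3, chr3:142620503-142620662 (plus) for Gbp2, chr5:120777660-120777819 (minus) for Oas3, chr4:156200819-156200978 (minus) for Isg15, chr4:40239826-40239985 (minus) for Ddx58 and chr11:72301469-72301628 (plus) for Xaf1.

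Ifit3 held 2 separate matches, beginning 156 and 122 bases before the start, and Isg15 held 3 that overlap one another. Gbp2 and Oas3 held 1 each, 59 and 75 bases before the start. In Ifi44 and Xaf1 the letters of the core do not occur in this window, which says nothing of the factors themselves, and in Ddx58 the match begins at base 3 after the start, outside the stretch shown. RefSeq promoters were found for 26 of the 35 genes, and Mx1, Mx2, Ifi27, Dhx58, Oas2, Usp18, Zbp1, Parp9 and Parp14 were not matched. In the 300 bases from 250 before to 50 after the start, a gene counted if any of its promoters held a match. The ISRE core on either strand was held by 12 of the 26 genes (46.2%), beside 3.99% of 27025 genes. These 12 are Bst2, Ddx58, Gbp2, Gbp3, Ifih1, Ifit1, Ifit3, Isg15, Oas1a, Oas3, Rsad2 and Stat2. The GAS palindrome TTCNNNGAA occurred in 6 of 26 (23.1%) beside 9.55% of the 27025 genes: Bst2, Ifi35, Ifit2, Irf1, Oas1a and Psmb8. Bst2 and Oas1a held both, and in Bst2 the GAS match, which begins 136 bases before the start, shares its last 3 bases with an ISRE match that begins 130 before. A match is a description of the letters and not a bound site, and matched genes were found both among those that rose and, in Ddx58, among those that fell.

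E-OEX LE was compared with the same WT LE libraries, so this comparison and the last share their controls. The direction was mostly upward, but only Ifit3, Ifi44 and Oas3 rose and only Ddx58 fell among 23 genes tested, 3 and 1 beside backgrounds of 5.12% higher and 5.54% lower over 2600 genes. The median log2 fold change was 0.90 against -0.09 over all genes, and 20 of 23 were positive. Every E-OEX LE library lay above every WT LE library for 12 genes (15.1% of all genes did) and below for 2 (14.8%), Ddx58 and Xaf1.

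Ifit3 had 58.9, 45.5 and 78.2 rescaled reads in WT LE and 643, 287 and 192 in E-OEX LE, which is 2.45 as a log2 fold change (SE 0.56, adjusted p = 0.0245). Ifi44 had 156, 99.3 and 192 and 1251, 589 and 494, a log2 fold change of 2.30 (SE 0.51, adjusted p = 0.0213). Oas3 had 383, 331 and 330.2 and 2573, 837 and 869, a log2 fold change of 1.82 (SE 0.51, adjusted p = 0.0495). In all 3 the groups were apart and E-OEX LE replicate 1 was at least 2 times the other libraries of its group. Ddx58 had 8106, 8676 and 10931 in WT LE and 2230.0, 1529 and 2967 in E-OEX LE, which is -2.08 as a log2 fold change (SE 0.41, adjusted p = 0.0149), with all 3 E-OEX libraries far under WT. Xaf1 had 3838, 2801 and 4698 and 1632, 961 and 1931, also apart, at a log2 fold change of -1.35 that did not pass (adjusted p = 0.0784).

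Other effectors in E-OEX LE had positive values that missed the threshold. Mx1 had a log2 fold change of 1.73 (95% interval 0.46 to 2.99), Cmpk2 1.54 (0.31 to 2.77), Oasl1 1.52 (0.42 to 2.63), Oas2 1.34 (0.21 to 2.47) and Isg15 1.29 (0.18 to 2.40). These intervals lie above 0 one at a time, and none of the 5 genes passed the adjustment over all genes. The factors Irf7, Usp18 and Stat2 had log2 fold changes of 0.16, 0.14 and -0.25, none past the threshold. Of the antigen-processing genes Psmb9 had 0.98, Tap1 0.85 and Psmb8 0.57, also without passing.

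Fewer genes of E-OEX LE passed without some single libraries, while the differences kept their direction and most of their size: Ddx58 ran from -2.17 to -1.83 on the log2 scale, Ifi44 from 1.90 to 2.73, Ifit3 from 1.96 to 3.0 and Oas3 from 1.29 to 2.24. The count over all genes fell likewise, from 277 to as few as 56. E-OEX LE replicate 1 was the highest library of its group for 22 of 24 genes, where it was the highest for 39.7% of all genes listed, and the summed deposited values of the 24 were 68755, 30232 and 38078. The count of changed genes on the list was 0 without E-OEX LE replicate 1, 0 without E-OEX LE replicate 2, 0 without WT LE replicate 3, 1 (Ddx58) without WT LE replicate 2, 3 without WT LE replicate 1 and 5 without E-OEX LE replicate 3. The median coefficient of variation of the 24 genes in E-OEX LE was 47.2%, against 21.9% for 26 genes in WT LE and 15% for 35 in U-OEx LE, and over all genes of E-OEX LE it was 44.4%. On the deposited scale 58.6% of all calls were higher, against 48.0% after rescaling, the median of all genes moved from -0.09 to 0.08, and the list again gave 3 higher and 1 lower. Of the leukocyte markers 2 of 26 were listed in both sets, neither changed, and their sums were 245 to 262 in WT LE and 177 to 227 in E-OEX LE.

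Set directly against each other, the luminal epithelia of U-OEx and E-OEX had no gene of 24 past the threshold. limma, edgeR and DESeq2 each called 0 of 24, where limma called 15% of 4276 genes. Before adjustment only Gbp2 and Zbp1 had intervals clear of 0. Gbp2 had a log2 fold change of 1.57 (95% interval 0.08 to 3.06) and Zbp1 had 1.24 (0.18 to 2.30). The median of the 24 was 0.02 against 0.06 over all genes. The intervals were wide: Isg15 had 0.16 (-0.78 to 1.10), Oas3 0.50 (-0.49 to 1.50), Ddx58 -0.45 (-1.19 to 0.28) and Xaf1 -0.50 (-1.27 to 0.26). So a difference of 2 times in either direction was within the interval of Ddx58, Xaf1 and Isg15 on at least 1 side, and the missed threshold does not show that the groups act alike. Bst2 was the 1 gene whose libraries did not overlap, where 38.2% of all genes did not, with 5207, 3531 and 3181 rescaled reads in E-OEX LE and 2567, 2636 and 2056 in U-OEx LE, and its log2 fold change of -0.69 did not pass (adjusted p = 0.159). Without E-OEX LE replicate 1, the high library, 4 of the 24 genes were higher in U-OEx LE: Oas3, Parp14, Gbp2 and Zbp1. In that fit 507 of all 4272 genes tested were higher too.

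In glandular epithelium 7 of 14 antiviral effectors tested were higher in E-OEX than in WT, and the other 7 did not pass. Of 23 genes 8 rose and 1 fell, where 9.72% of 2851 genes rose and 13.8% fell. The median log2 fold change was 0.79 against 0.05 over all genes, and 22 of 23 were positive. Every E-OEX GE library lay above every WT GE library for 12 genes (18.6% of all genes did) and below for 1 (21.9%).

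Isg15 had 61.2, 35.3 and 74.6 rescaled reads in WT GE and 252, 192 and 202 in E-OEX GE, which is 1.96 as a log2 fold change (SE 0.34, adjusted p = 0.00287). Cmpk2 had 44.2, 35.3 and 53.5 and 257, 125 and 143, a log2 fold change of 1.91 (SE 0.35, adjusted p = 0.00412). These 2 genes passed in all 6 fits that leave out a library. Oas3 had only 4.02, 2.72 and 16.7 in WT GE, which is a few reads, and 150.0, 21.2 and 37.8 in E-OEX GE, led by replicate 1. Its log2 fold change of 2.91 was the largest of the group and carried the widest error (SE 0.79, adjusted p = 0.0247). Oas2 had 196, 119.6 and 252 and 855, 372 and 336 (log2 fold change 1.39, adjusted p = 0.0347). Ifit3 had 29.1, 10.9 and 30.7 and 76.2, 50 and 70.1 (log2 fold change 1.55, adjusted p = 0.0321), and Ifit1 had 42.2, 38.9 and 67.6 and 178, 77.9 and 112 (1.25, adjusted p = 0.0412). The 3 genes were separate between the groups. Mx1 had 22.1, 12.7 and 17.6 in WT GE and 81.7, 33.9 and 36 in E-OEX GE (log2 fold change 1.40, adjusted p = 0.0457). Tap1 had 547, 392 and 450.3 and 982, 662 and 764, the smallest rise at 0.79 (adjusted p = 0.0484). E-OEX GE replicate 1 was the highest library for both. Mx1 and Tap1 each passed in 0 of the 6 fits that leave out a library. Oas3, Ifit3 and Ifit1 passed in 2 of the 6 each, and Oas2 in 3.

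Ddx58 fell in the glands as well. It had 1546, 1261 and 1526 rescaled reads in WT GE and 776, 763 and 762 in E-OEX GE, with almost no spread within E-OEX GE and a log2 fold change of -0.91 (SE 0.21, adjusted p = 0.0133). Xaf1 had 333, 244 and 414 and 275, 444 and 396, which overlap, and a log2 fold change of 0.17 (95% interval -0.49 to 0.83). The scaling decided much of this comparison. On the deposited scale the median of all genes was 0.50 in place of 0.05, 71.6% of all calls were higher in place of 41.3%, 20 genes of the list rose, and Ddx58 no longer passed (log2 fold change -0.44, adjusted p = 0.14). Without 1 library the count of changed genes on the list ran from 2 to 8: 2 without WT GE replicate 1, 3 without WT GE replicate 2, 3 without E-OEX GE replicate 1 and 4 without E-OEX GE replicate 3. Smooth muscle markers moved with the group, 4 of 5 higher in E-OEX GE with sums of 2819.9 to 4949 in WT GE and 9211 to 13863 in E-OEX GE, and 5 of 6 glandular markers were lower, with sums of 20990.3 to 30547 and 3381 to 4396. The part of these cells in the result was not tested.

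**Figure D3:**
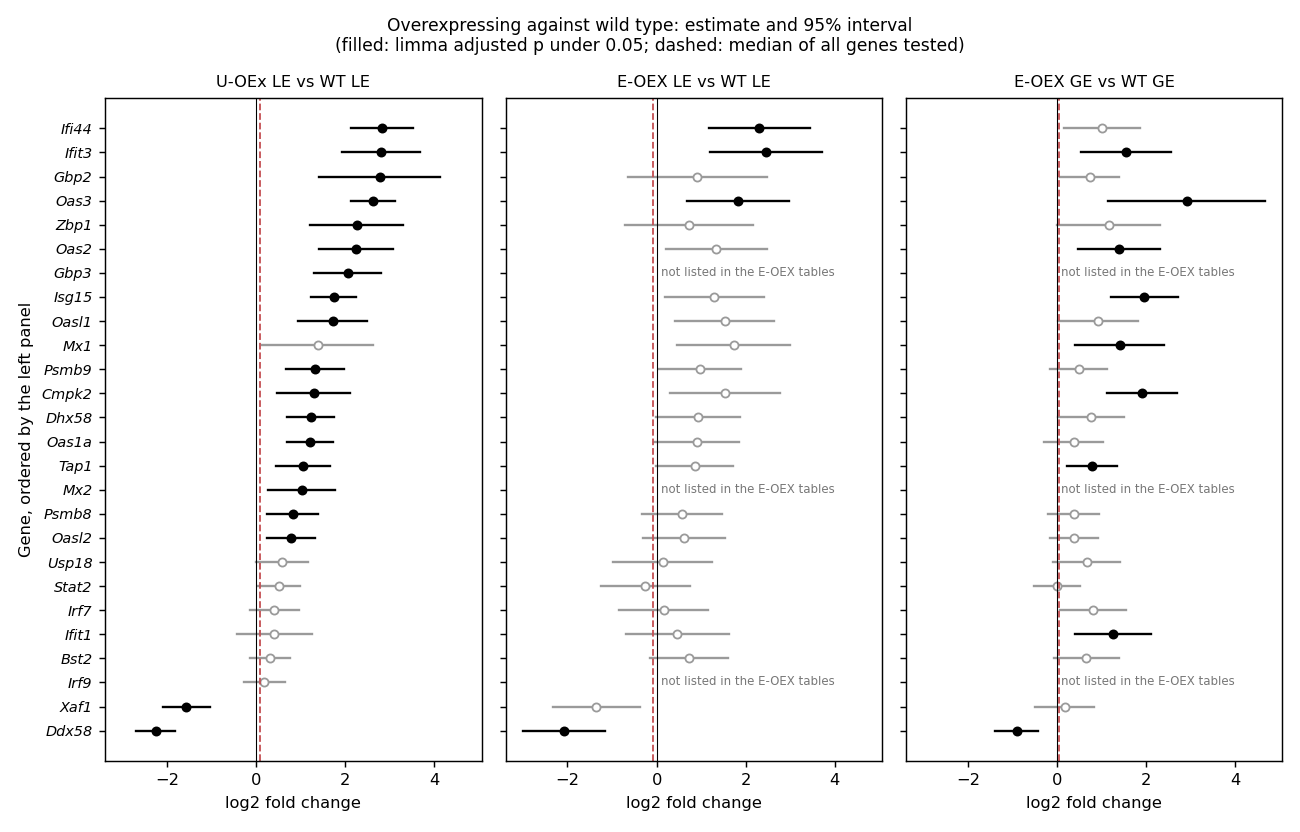
Log2 fold changes (points) with 95% intervals (bars) of each gene in U-OEx LE and E-OEX LE against WT LE and in E-OEX GE against WT GE; filled points passed an adjusted p of 0.05 and the dashed line is the median of all genes tested. Most points lie right of 0, and Ddx58 lies left of it and is filled in all 3 panels.

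Between the epithelia of one genotype, every listed gene was lower in the glands. In WT all 26 genes were lower in GE than in LE, where 40.5% of all listed genes were lower, and the median log2 fold change was -1.70 against 1.36 over all listed genes. In E-OEX all 24 had negative values and 22 passed, all but Cmpk2 and Gbp2, where 30.1% of all listed genes were lower, and the median was -1.80 against 1.75. Since the tables list genes by this same difference, these values describe the listed genes only. Rescaling the counts by TMM moved the median of all listed genes to 1.13 in WT and 1.07 in E-OEX and the share of calls that were higher from 67.2% to 56.8% in E-OEX, and all 26 and all 24 genes were then lower. The range in WT ran from Oas3, at -5.66, through Ifit1 (-3.70), Zbp1 (-3.66), Oas2 (-3.53) and Xaf1 (-3.51), to Psmb9 (-1.09) and Gbp3 (-0.99). Oas3 had deposited values of 357, 366 and 321 in WT LE and 3.89, 2.84 and 16.4 in WT GE, and of 3188, 870.1 and 967 in E-OEX LE and 189, 28.7 and 58.1 in E-OEX GE. Isg15 had 362, 361 and 469 and 59.4, 37 and 73.5 in WT, and 2289, 808 and 699 and 318, 261 and 310.1 in E-OEX, so the lumen was above the glands in each genotype without overlap. The glandular libraries also held far more RNA of stromal markers: 9 stromal markers listed in WT summed to 408 to 7900.4 in WT LE and 35483 to 101302 in WT GE, and the part of other cells in this difference was not tested.

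**Figure D4:**
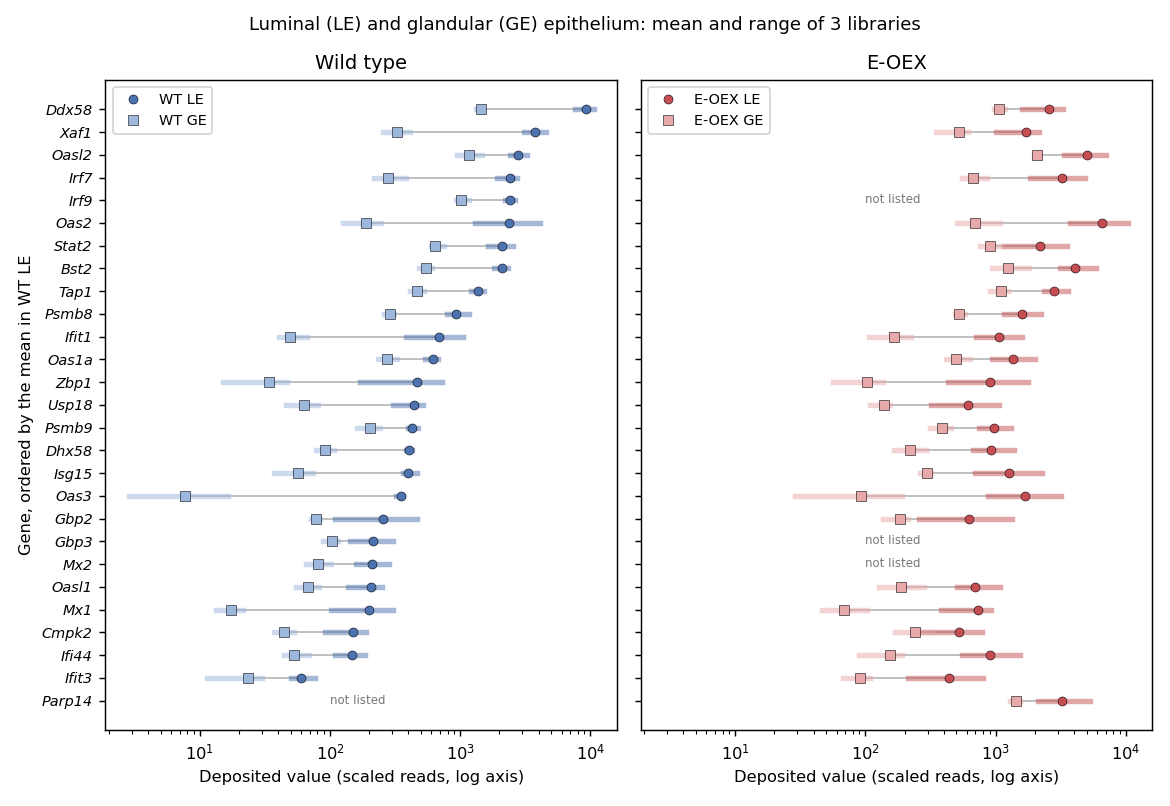
Deposited values (log axis) of 27 genes in luminal (circles) and glandular (squares) epithelium of WT, left, and E-OEX, right; symbols are means of 3 libraries and bars their range. Every circle lies right of its square, and the gap of Ddx58 is narrower in E-OEX than in WT.

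Ddx58 and Xaf1 were the 2 genes of 23 (8.7%) for which the luminal to glandular difference itself changed with genotype. Over all 2933 genes 5.83% changed in this direction, so the share of the list is near the background. Only genes listed in both WT and E-OEX could be tested. Both lists are selected on the difference between GE and LE, so a gene without it in 1 genotype could not enter. Both shares therefore describe the listed genes only. Deposited values of Ddx58 were 7559.8, 9578 and 10618 in WT LE, 1499, 1319 and 1505 in WT GE, 2762, 1588 and 3302 in E-OEX LE, 979, 1036 and 1170.1 in E-OEX GE and 1865, 1960.4 and 2029 in U-OEx LE. On these deposited values, which are not rescaled between genotypes, WT LE stood above every other group. The order below it was E-OEX LE and U-OEx LE, which overlapped, then WT GE and E-OEX GE. Places of groups of different genotypes depend on the scaling. On this scale Ddx58 did not pass in E-OEX GE against WT GE (limma adjusted p = 0.14). Xaf1 had 3579, 3092 and 4563 in WT LE, 323, 255 and 408 in WT GE, 2021, 999 and 2149 in E-OEX LE, 347, 602 and 609 in E-OEX GE and 1113, 1343 and 1346 in U-OEx LE. Here too WT LE was the highest and E-OEX LE overlapped U-OEx LE, while the 2 glandular groups overlapped at the bottom. The difference of differences on the log2 scale was 1.47 for Ddx58 (SE 0.42) and 1.82 for Xaf1 (SE 0.52), each with an adjusted p of 0.0421 by limma. With the counts rescaled by TMM the values were 1.21 (adjusted p = 0.0956) and 1.56 (adjusted p = 0.0712), and neither passed. The other 21 genes did not pass, with intervals as wide as -0.90 to 3.57 for Oas3.

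The place of the 2 genes in the order by level per kilobase moved as well. In WT LE Ddx58 was second of 26 at 1312 ± 221 per kilobase and Xaf1 came next at 799 ± 160, behind Bst2 at 2320 ± 285 (SD, n = 3). Among the 35 genes of U-OEx LE they were at places 22 and 24, at 277 ± 11.7 and 270.2 ± 28.5, and among the 24 of E-OEX LE at places 12 and 11, at 362 ± 124 and 367 ± 134. These places are on different sets of genes. Ifi27, Irf1, Parp14, Ifi35 and Parp9 stand above both in U-OEx LE and are not listed in WT, so part of that move comes from the longer list. Bst2 was the highest of the listed genes in all 5 groups. Neither Ddx58 nor Xaf1 overlaps an exon of another gene in the annotation.

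**Figure D5:**
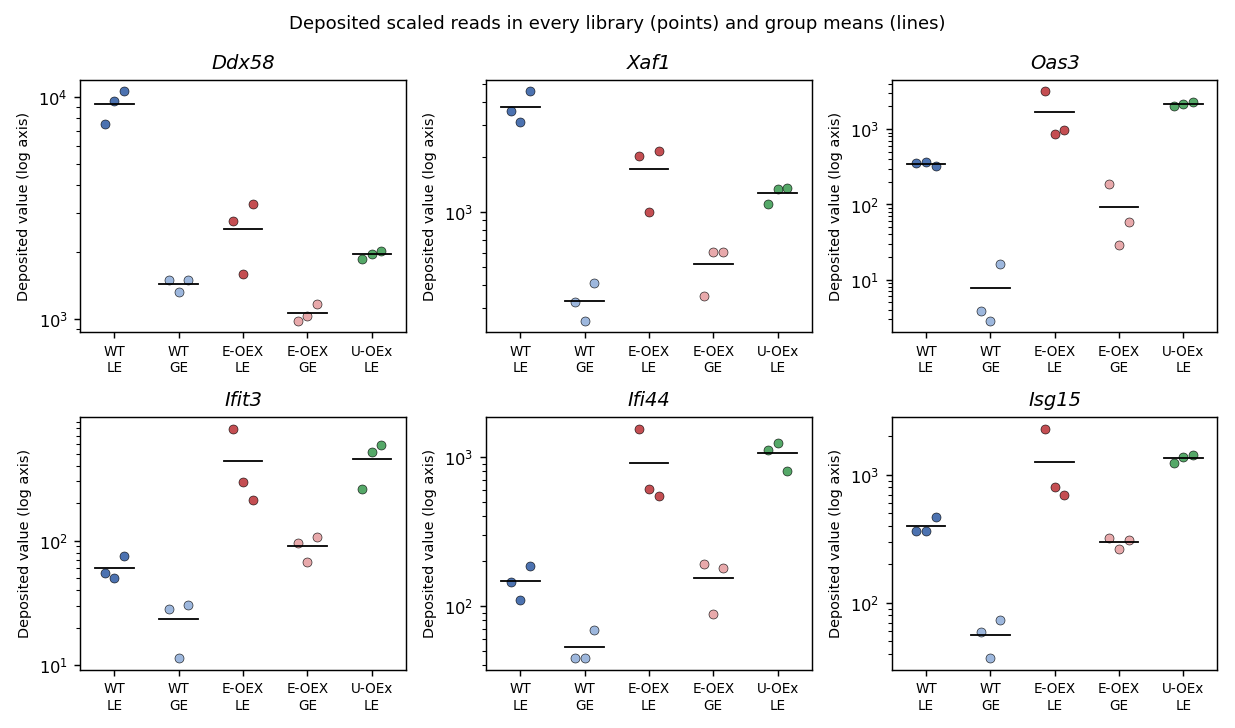
Deposited values (log axis) of Ddx58, Xaf1, Oas3, Ifit3, Ifi44 and Isg15 in the 15 libraries (points) of 5 groups, with group means (lines). Ddx58 and Xaf1 are highest in WT LE, and the other 4 genes are higher in E-OEX LE and U-OEx LE than in WT LE.

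Further genes of the pathway were read from lists outside the 35. Among the ligands, Ifne, which encodes the uterine interferon epsilon, had deposited values of 79.8, 104 and 148 in WT LE, 238, 85.4 and 108 in E-OEX LE and 85.5, 94.2 and 96 in U-OEx LE. It was near 0 in WT GE (0.973, 0 and 0.865) and low in E-OEX GE (19, 9.2 and 0), and the luminal groups overlapped: the log2 fold change against WT LE was -0.24 in U-OEx LE and 0.11 in E-OEX LE, neither past the threshold. Ifnb1 was 1.84, 0 and 0 and Ifng 5.51, 1.78 and 0 in U-OEx LE, a few reads at most. The receptor genes Ifnar1 and Ifnar2 were listed in U-OEx LE alone, at means of 1403 ± 214 and 803 ± 169 (SD, n = 3).

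Of 10 signalling genes tested in U-OEx LE against WT LE, 4 rose and 2 fell, where 29.1% of all genes rose and 27.8% fell, so these shares are near the background. The 4 were Mb21d1, the DNA sensor cGAS, at a log2 fold change of 2.68, the transcription factor Irf8 at 2.64, the feedback inhibitor Socs1 at 1.50, and the interferon lambda receptor Ifnlr1 at 0.77. Ifnlr1 had 674, 732 and 645 rescaled reads in WT LE and 1224, 1075 and 1203 in U-OEx LE, apart by a small margin. Myd88, an adaptor of Toll-like receptors, fell from 15372, 10643 and 13547 to 945, 521 and 1064 (log2 fold change -4.01). In E-OEX LE and in E-OEX GE 0 of 5 signalling genes passed by limma, and against E-OEX LE the kinase Ikbke was higher in U-OEx LE (1.62, 1 of 8).

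Of 33 interferon-stimulated genes outside the 35 that were tested in U-OEx LE, 17 rose, 0 fell and 16 did not pass by limma, with a median of 0.95, where 29.1% of all genes rose and 27.8% fell. Slfn5, a regulator of interferon responses, had 20.4, 15.5 and 17.2 rescaled reads in WT LE and 471, 254 and 599.8 in U-OEx LE (log2 fold change 4.49), and Samd9l, a restriction factor, had 1045, 416 and 799 and 4815, 4081 and 5805 (2.78). Ifi213 (4.37), Slfn2 (2.74), Ifit3b (2.43) and Epsti1 (1.74) rose too. In E-OEX LE 0 of 21 passed by limma, with a median of 0.93. In E-OEX GE 5 of 21 rose (9.72% of all genes did), led by Apol9b from 13.1, 9.96 and 19.3 to 88.9, 57.6 and 52.4 (log2 fold change 2.18), and 1 fell (13.8%), Ifitm6 (-2.56). Between the mutants the chemokine Cxcl9 was higher in U-OEx LE (3.68, 1 of 35).

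Class I antigen processing, the endpoint of Psmb8, Psmb9 and Tap1, was represented by 7 more genes in U-OEx LE against WT LE, of which 5 rose and 1 fell beside the same 29.1% and 27.8% of all genes. The class Ib genes H2-Q6 (1.90), H2-Q7 (1.63), H2-M3 (1.56) and H2-Q4 (1.11) rose, with the caution that the Q genes are close copies, as did the proteasome activator Psme2 (1.16). Tapbp, which loads peptides, fell by 1.19 on the log2 scale. H2-Q7 was also higher in E-OEX LE, with 1175, 615 and 746 rescaled reads in WT LE and 2768, 2705 and 2145 in E-OEX LE (log2 fold change 1.63, 1 of 3), and in E-OEX GE (1.22, 1 of 3 higher), where Tapbp fell (-0.76).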

How the data were processed

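RNA from 15 libraries in 5 groups of 3 was prepared with the RNeasy mini plus and NEBNext Ultra kits, per the labels' protocols, and the genome build was GRCm38 (mm10), per the submitters' processing notes. The aligner and the counter are not given in the sources used here. The authors deposited 1 table per library whose values are a signal: read counts divided by 1 factor per library, from which whole reads were recovered for 100% of values (tolerance 0.01). Groups followed the genotype and cell type labels and the titles. The 35 genes and the other gene lists were chosen with earlier results of these data known.

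Genes with a mean of at least 1 were tested with limma 3.58.1 (R 4.3.3; trended eBayes) on log2 of the value plus 1. Comparisons between genotypes used the recovered reads rescaled by TMM over the genes listed in both tables, and those within a genotype and the interaction used the deposited values. P-values were adjusted over all genes tested by Benjamini-Hochberg, and intervals are at 95%. The alternatives were the other scaling, a pseudocount of 0.1, no filter, edgeR 4.0.16 quasi-likelihood and DESeq2 1.42.0 on recovered reads, a replicate block, and leaving out each library. Every member that passed an adjusted p of 0.05 between genotypes or in the interaction is given in each library of that comparison, and of the other lists up to 6 genes per comparison. The fit was tested on simulated counts: of 100 genes changed by 1.5 and 100 changed by 3 on the log2 scale it recovered 23% and 82% for U-OEx LE against WT LE (5919 genes), 10% and 60% for E-OEX LE against WT LE (2564), 71% and 98% for E-OEX GE against WT GE (2850), 7% and 84% for U-OEx LE against E-OEX LE (4230, with 10.8% of calls false) and 1% and 7% for the interaction (2932). The simulation changed 200 genes per comparison, while the real fit of U-OEx LE against WT LE called 3384 of 5950. The recovered shares therefore hold for the simulated setting and do not measure the recovery in these data. Entries with no gene symbol (318 in WT, 222 in E-OEX and 761 in U-OEx tables) were kept in the fits by identifier. Exon lengths and positions are from GENCODE M21 and promoters from RefSeq (GRCm38.p6). One signalling gene counted among those that fell is not reported here by name.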

Additional observations from a re-analysis of the deposited data

Results flagged for a closer look

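Ddx58 and Xaf1 differed between lumen and glands in how they changed with genotype. Both were lower in the glands, and the gap was smaller in E-OEX: the log2 difference of glandular minus luminal epithelium was -2.67 in WT and -1.20 in E-OEX for Ddx58, and -3.51 and -1.70 for Xaf1. The E-OEX minus WT values were 1.47 (SE 0.42) and 1.82 (SE 0.52), each at an adjusted p of 0.0421 by limma over 2933 genes. Those are the genes listed in both WT and E-OEX, whose lists are selected on the difference between GE and LE. The interval ran from 0.56 to 2.38 for Ddx58 and from 0.69 to 2.95 for Xaf1. On rescaled reads the log2 fold changes against WT were -2.08 (luminal) and -0.91 (glandular) for Ddx58, and -1.35 and 0.17 for Xaf1. DESeq2 gave an adjusted p of 0.00688 for Ddx58 and 0.00977 for Xaf1, edgeR 0.126 and 0.0942, and the TMM scaling 0.0956 and 0.0712. Leaving out 1 library gave adjusted p-values from 0.0151 to 0.111 for Ddx58 and from 0.026 to 0.114 for Xaf1, with positive values throughout. Marker genes also differed in this interaction. Of the luminal markers 2 of 5 were higher, with a median of 2.85, the direction of Ddx58 and Xaf1. Of the smooth muscle markers 3 of 5 were higher, and of the glandular markers 4 of 6 were lower. Epithelial and endothelial markers had 1 of 2 and 1 of 8 higher. The part of these cells in the result was not tested.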

How the results depend on the processing

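No result of a gene of the list changed direction after being called. Of 2166 values recomputed for these genes, 2025 kept their side of the threshold, 102 lost the call and 39 gained one. Genes named from the other lists are not among these values. For U-OEx LE against WT LE all counts stayed within 1.5 times of those reported (18 to 19 genes of the list without 1 library). For E-OEX LE against WT LE the list gave 4 changed genes as reported, 1 with no filter and 8 with DESeq2, and all genes gave 277, 105 and 456. Without 1 library these ran from 0 to 5 and from 56 to 323. For E-OEX GE against WT GE the list gave 9, 20 on the deposited scale and 3 with no filter, and without 1 library 2 to 8, with 362 to 720 for all genes. For U-OEx LE against E-OEX LE all genes gave 642, and 286 with no filter, and without 1 library the list gave 0 to 4 and all genes 60 to 903. The interaction gave 2 genes of the list, 0 under TMM and 0 with edgeR, and 501 of all genes with DESeq2 against 315. Without 1 library it gave 0 to 2 and 179 to 449. Under TMM the median interaction of all genes was 0.07, against 0.33.

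The main fits took the libraries as unpaired. The correlations of same-numbered deviations over the genes tested ran from -0.28 to 0.19, which with 3 libraries per group cannot decide whether the numbers pair them. On the list, replicate 1 of E-OEX was the highest for 22 of 24 genes in LE and 17 of 24 in GE. In WT replicate 3 was the highest for 14 of 26 genes in LE and 21 of 26 in GE. With a replicate block, Gbp2 (1 gene) passed for U-OEx LE against E-OEX LE, and every other count stayed within 1.5 times. DESeq2 size factors moved the share of calls that were higher in the glands from 58.3% to 47.5% in WT and from 67.2% to 47.4% in E-OEX, with all 26 and all 24 genes lower. Each fit without a library leaves 2 in that group. Oas3 in WT GE rests on as few as 3 reads, and the cause of none of these changes was tested.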
